A study of Homo sapiens with 9 samples.

Results

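ETV4 and ETV1 are close relatives in the PEA3 subfamily of ETS transcription factors, and their binding was compared across the prostate cell lines in which each was mapped by chromatin immunoprecipitation and sequencing (ChIP-seq). The members are all called regions (peaks) of the ETV4 list from PC3 and of the FLAG-ETV1 list from RWPE-1, together 11879 of the 27416 peaks in the 6 lists of the series. They fall into 251 shared regions, in which a peak of each list overlapped by at least 1 bp, 2892 ETV4-specific peaks and 8485 FLAG-ETV1-specific peaks. ETV4 was precipitated from PC3 cells, which derive from a prostate cancer metastasis, without any retroviral construct, using an antibody to ETV4 itself. ETV1 was expressed in RWPE-1, an immortalised and non-tumorigenic prostate epithelial line, as a FLAG fusion from a retrovirus and was precipitated with an antibody to FLAG. The 4 lists used for comparison were JUND in PC3, and ETS1, GABPA and retroviral FLAG-ERG in RWPE-1. JUND, ETS1 and GABPA were precipitated with antibodies to the proteins and no construct, and FLAG-ERG with the FLAG antibody. With a single library behind every list (1 per factor), spread between replicates is unknown, and factors and lines were compared without a test. Factor, antibody, way of expression and cell line all differ between ETV4 and FLAG-ETV1 and cannot be told apart. Peak lists hold no expression values, so the identity of the lines could not be checked against markers.

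ETS proteins bind DNA through a winged helix-turn-helix domain that recognises a core GGA motif. The PEA3 subfamily (ETV1, ETV4 and ETV5) carries an acidic activation domain near its start and takes part in branching organ development and cell migration. ETV1 and ETV4 are activated by chromosomal rearrangement in some prostate cancers, as is ERG, an ETS protein of another subfamily. ETS1 and GABPA are ETS proteins present in many tissues. GABPA is known for promoters of housekeeping genes. JUND is a subunit of AP-1, a leucine zipper factor whose sites often lie beside ETS sites in enhancers of migration genes.

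Most regions of either PEA3 protein were not regions of the other. Each of the 251 shared ETV4 peaks overlapped 1 FLAG-ETV1 peak, and they made up 7.99% of the ETV4 list (95% Wilson interval 7.09 to 8.99%) and 2.87% of the FLAG-ETV1 list (2.54 to 3.24%). The intervals in the text cover counting error only. This overlap defined the classes and is given as a description. With the FLAG-ETV1 list reduced to the ETV4 list size by taking evenly spaced rows, 3.25% of either list was shared, so the first share depended on list size. Shared peaks were about as wide as the rest, with a median of 494 bp in the ETV4 list and 491 bp in the FLAG-ETV1 list, against 489 and 484 bp for specific peaks.

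Where the lists met, the peaks were often but not always centred together. The overlap ranged from 15 to 498 bp with a median of 343 bp, and in 190 of the 251 regions it covered at least 50% of both peaks. Midpoints lay a median of 138.5 bp apart (quartiles 61.5 and 230.5 bp). They were within 50 bp of each other in 53 regions and within 100 bp in 98 regions, or 39.0% (33.2 to 45.2%). In 39 regions they were more than 300 bp apart. The FLAG-ETV1 midpoint was at the higher coordinate in 116 regions, or 46.2% (40.2 to 52.4%). Regions were not oriented by motif or gene, so this share cannot show whether either protein lay to a set side of the other.

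**Figure D1:**
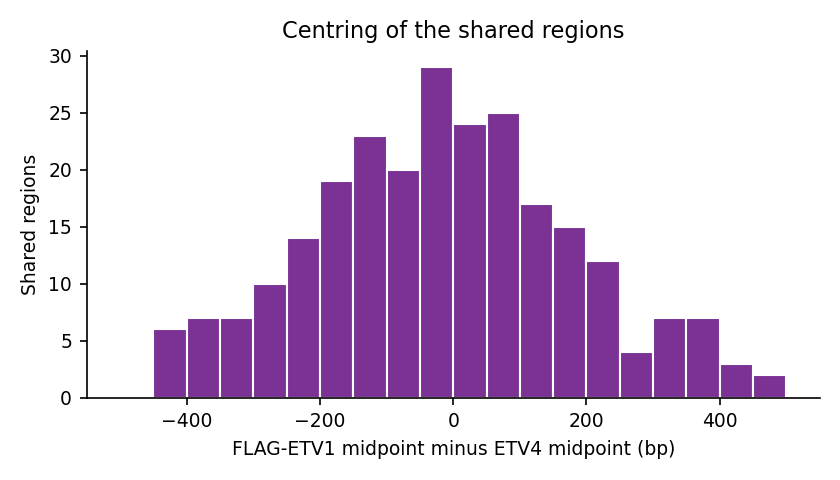
Distance in bp from the ETV4 midpoint to the FLAG-ETV1 midpoint (horizontal axis, bins of 50 bp) and number of shared regions (vertical axis) for the 251 shared regions. The distribution is centred near 0, with 98 regions within 100 bp and 39 beyond 300 bp.

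Regions bound by both PEA3 proteins were also the regions most often called for JUND, ERG and ETS1. JUND overlapped 106 of the 251 shared peaks, 42.2% (36.3 to 48.4%), against 616 of the ETV4-specific peaks, 21.3% (19.8 to 22.8%), and 131 of the FLAG-ETV1-specific peaks, 1.54% (1.30 to 1.83%). In the whole lists, JUND overlapped 23.0% of the ETV4 and 2.71% of the FLAG-ETV1 peaks. The shared share exceeded the ETV4-specific share by 20.9 percentage points (95% Newcombe interval 14.8 to 27.3) and the FLAG-ETV1-specific share by 40.7 points (34.7 to 46.9). JUND and ETV4 were mapped in the same line, so a share of ETV4 peaks with JUND is a share within PC3 and that of FLAG-ETV1 peaks is a share across lines.

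FLAG-ERG separated shared from specific ETV4 peaks more than JUND did, while JUND separated shared from specific FLAG-ETV1 peaks more than FLAG-ERG did. It overlapped 96 shared peaks, 38.2% (32.5 to 44.4%), but 111 ETV4-specific peaks, 3.84% (3.2 to 4.60%), a ratio of 9.96, and the difference was 34.4 points (28.6 to 40.6). For JUND the same ratio was 1.98. Among FLAG-ETV1-specific peaks, FLAG-ERG overlapped 624, or 7.35% (6.82 to 7.93%), which was 30.9 points (25.1 to 37.1) below the shared peaks. On the FLAG-ETV1 side the ratio of shared to specific shares was 27.4 for JUND and 5.20 for FLAG-ERG. A shared peak is by definition called in both lines, and the part of this in either order was not tested. The shares of FLAG-ERG over all peaks were 6.59% for ETV4 and 8.24% for FLAG-ETV1. FLAG-ERG and FLAG-ETV1 share the antibody, the kind of expression and the line, and the part of these in their common peaks was not tested.

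The endogenous ETS proteins of RWPE-1 differed from each other in this respect. ETS1 overlapped 29 shared peaks, 11.6% (8.17 to 16.1%), 29 ETV4-specific peaks, 1.0% (0.699 to 1.44%), and 342 FLAG-ETV1-specific peaks, 4.03% (3.63 to 4.47%). Its shares of the whole lists were 1.85% of ETV4 and 4.25% of FLAG-ETV1 peaks. The shared peaks were 10.6 points (7.14 to 15.1) above the ETV4-specific and 7.52 points (4.11 to 12.1) above the FLAG-ETV1-specific peaks. GABPA overlapped 14 shared peaks, 5.58% (3.35 to 9.14%), and 464 FLAG-ETV1-specific peaks, 5.47% (5.0 to 5.97%). Those shares differed by 0.11 points with an interval of -2.17 to 3.70, so a difference for GABPA was not detectable on the FLAG-ETV1 side. GABPA overlapped 30 ETV4-specific peaks, 1.04% (0.728 to 1.48%), 4.54 points (2.27 to 8.12) below the shared peaks. In the first rows of each file, as many as the shortest list holds, that difference was -0.33 points with an interval that included 0 (-0.68 to 7.23). This setting also shortened the GABPA list and left only 2.16% of the ETV4 rows shared. So few shared peaks cannot show a change of direction for GABPA. Over all peaks GABPA overlapped 1.40% of ETV4 and 5.47% of FLAG-ETV1 regions.

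The specific peaks of the PEA3 proteins met different partners. ETV4-specific peaks were JUND regions more often than FLAG-ETV1-specific peaks by 19.8 points (18.3 to 21.3). They were less often regions of FLAG-ERG, by -3.52 points (-4.38 to -2.58), of ETS1, by -3.03 points (-3.56 to -2.44), and of GABPA, by -4.43 points (-5.02 to -3.79). In each case the protein mapped in the same line as the PEA3 protein was the one met more often. In the same first rows the FLAG-ERG difference was -0.52 points with an interval that included 0 (-2.05 to 1.02).

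**Figure D2:**
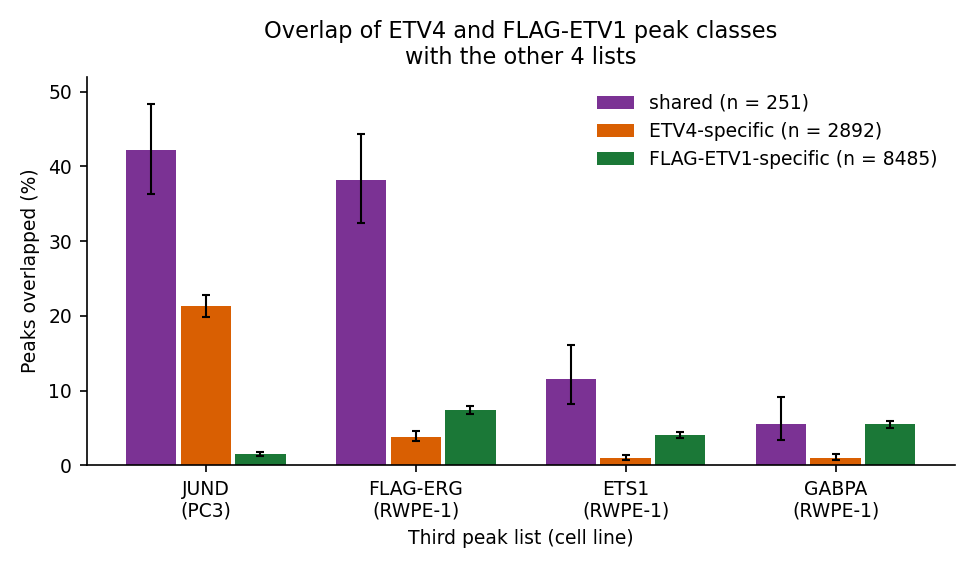
Percentage of peaks (vertical axis) overlapped by each of the other 4 lists (horizontal axis, with its cell line) for 251 shared, 2892 ETV4-specific and 8485 FLAG-ETV1-specific peaks; bars are shares and error bars Wilson 95% intervals. Shared peaks, taken as ETV4 peaks, are highest for JUND, FLAG-ERG and ETS1, while for GABPA they are level with the FLAG-ETV1-specific peaks.

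Counting the 4 other lists together, 84 of the 251 shared ETV4 peaks met none of them, 33.5% (27.9 to 39.5%), and 68 met at least 2, 27.1% (22 to 32.9%). Of the ETV4-specific peaks 75.7% met none and 2.56% at least 2, and of the FLAG-ETV1-specific peaks 85.2% and 3.18%. The commonest combinations on the shared peaks were JUND alone (56 peaks), JUND with FLAG-ERG (39), FLAG-ERG alone (33) and FLAG-ERG with ETS1 (10). On ETV4-specific peaks JUND alone came first with 548 peaks, or 18.9%, and FLAG-ERG alone followed with 53. On FLAG-ETV1-specific peaks the order was FLAG-ERG alone (408), GABPA alone (298), ETS1 alone (183) and JUND alone (96). None of the 251 shared peaks met all 4 other lists. A count of 0 is given the limit of 3 counts, here a share of up to 1.20%, and the upper Wilson bound is 1.51%.

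The other factors met each other unevenly on the PEA3 peaks. ETS1 overlapped 19 of the 96 shared peaks with FLAG-ERG, 19.8%, and 10 of the 155 without, 6.45%, a difference of 13.3 points (4.94 to 22.9). GABPA overlapped 1 of the 106 shared peaks with JUND and 13 of the 145 without, 0.94% against 8.97%, a difference of -8.02 points (-13.8 to -2.45). JUND overlapped 49.0% of the shared peaks with FLAG-ERG and 38.1% of those without, and that difference of 10.9 points had an interval from -1.63 to 23.1. Among ETV4-specific peaks the same contrast was wider, with JUND on 49.5% of the 111 peaks with FLAG-ERG and 20.2% of the 2781 without, a difference of 29.4 points (20.1 to 38.7). Among FLAG-ETV1-specific peaks with FLAG-ERG, JUND overlapped 30 of 624, 4.81% (3.39 to 6.78%). Of the 7861 without FLAG-ERG it overlapped 1.28%, a difference of 3.52 points (2.08 to 5.51). The FLAG-ETV1-specific peaks with FLAG-ERG were also richer in the endogenous ETS proteins. GABPA overlapped 18.3% of them against 4.45% of the peaks without FLAG-ERG (13.8 points, 10.9 to 17.1), and ETS1 17.3% against 2.98% (14.3 points, 11.5 to 17.5).

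JUND peaks were centred nearer to ETV4 than to FLAG-ETV1 within the same regions. In the 105 shared regions where JUND overlapped both PEA3 peaks, the median midpoint distance was 73 bp to ETV4 and 134 bp to FLAG-ETV1, and ETV4 was the nearer in 70 of them. ETS1 lay a median of 151.5 bp from ETV4 and 81 bp from FLAG-ETV1 in 29 regions, with FLAG-ETV1 nearer in 18. FLAG-ERG was at 99.8 and 114.5 bp in 96 regions. On specific peaks JUND lay at 71 bp from ETV4 (616 peaks) and 143.5 bp from FLAG-ETV1 (131 peaks). Depth of the libraries and the precision of each called centre are unknown, and their part in these distances was not tested.

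The rows of the ETV4 file are in an order that no source used here describes, and overlap changed along it. The rows were divided into 5 equal runs, or quintiles. Shared peaks were 91 of the first 628 rows, 14.5% (12 to 17.5%), and 6.52% of the last quintile (4.84 to 8.72%). In the first quintile JUND overlapped 60.4% of the shared and 38.5% of the specific ETV4 peaks, a difference of 21.9 points (10.8 to 32.1). In the last quintile the shares were 14.6% and 13.4% and the difference 1.20 points (-7.11 to 15.2). The intervals of the JUND difference excluded 0 in the first 3 quintiles and not in the other 2. For FLAG-ERG the difference was 42.5 points in the first quintile (32.1 to 52.8) and 22.5 points in the last (11.9 to 37.5), and its interval excluded 0 in all 5 quintiles, as did that of ETS1. For GABPA the counts were small. It overlapped 3 of the 91 shared peaks of the first quintile, 3.30% (1.13 to 9.25%), and 5 of the 41 of the last, 12.2% (5.32 to 25.5%). These intervals overlap, so a rise along the file was not shown. Its difference from specific peaks had an interval above 0 in the last 2 quintiles alone, at 10.4 (3.43 to 25) and 11.3 points (4.38 to 24.7). The interval in the first quintile was -0.349 to 8.16 points. With specific peaks weighted to the rows that shared peaks occupy, JUND overlapped 25.2% of the specific peaks, which left 42.2% of the shared peaks above it. In the FLAG-ETV1 file sharing was more even, from 2.46 to 3.2% of a quintile, and the JUND difference lay between 32.3 and 47.3 points in all 5. What the row order stands for was not tested.

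**Figure D3:**
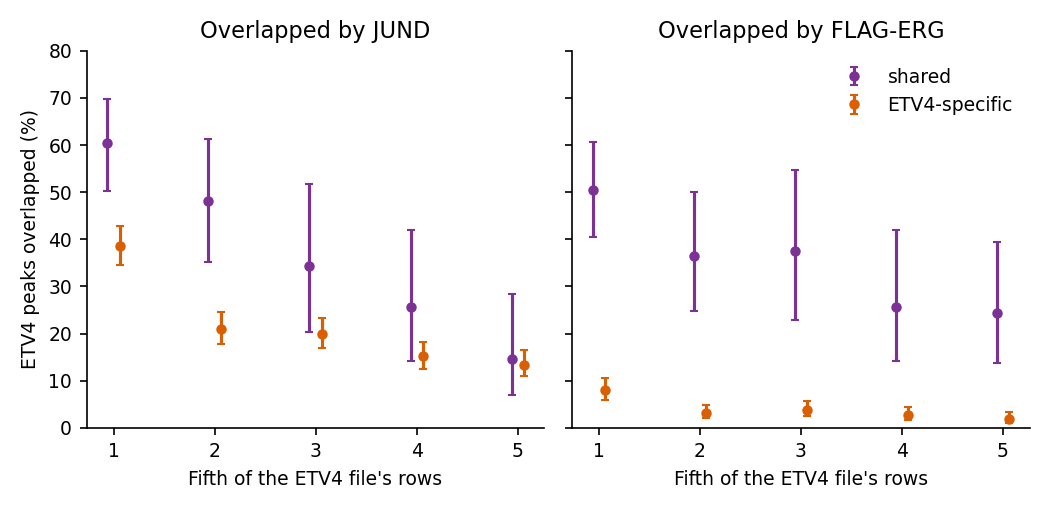
Percentage of ETV4 peaks overlapped by JUND (left) and FLAG-ERG (right) in each quintile of the rows of the ETV4 file (horizontal axis), for shared and ETV4-specific peaks; points are shares and error bars Wilson 95% intervals. The JUND gap goes from 21.9 points in the first quintile to 1.20 points in the last, while the FLAG-ERG gap is 22.5 points or more in every quintile.

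ETV4 peaks were packed more closely than FLAG-ETV1 peaks at short range. Another peak of the same list lay within 10 kb, midpoint to midpoint, for 651 ETV4 peaks, 20.7% (19.3 to 22.2%), and for 1289 FLAG-ETV1 peaks, 14.8% (14 to 15.5%), a difference of 5.96 points (4.38 to 7.58). Close neighbours are mutual, so intervals of neighbour shares, here and in the next paragraph, treat linked peaks as separate counts and are likely too narrow. A longer list has closer neighbours by its length, and the FLAG-ETV1 list is 2.78 times as long. With evenly spaced rows of the FLAG-ETV1 file at the ETV4 list size, the share fell to 6.20% (5.41 to 7.10%) and the difference was 14.5 points (12.9 to 16.2). Leaving out rows removes neighbours by construction, so the values at equal size cannot show how a shorter called list would be spaced. At the wider limit of 50 kb the full lists stood the other way round, 42.3% for ETV4 and 46.1% for FLAG-ETV1, and at equal size 42.3% and 22.9%. The median distance to the nearest peak was 76.6 kb for ETV4, 58.3 kb for FLAG-ETV1 and 174.2 kb for FLAG-ETV1 at equal size. The upper quartile was 342.4 kb for ETV4, 158.9 kb for FLAG-ETV1 and 458.7 kb for FLAG-ETV1 at equal size, so the wider gaps of ETV4 in the full lists were not wider at equal size. JUND, a list of similar length from the same line, had 11.2% of its peaks within 10 kb of another (10.1 to 12.3%). No ETV4 peak lay within 1 kb of another ETV4 peak and 2 FLAG-ETV1 peaks did, with shortest distances of 1.02 and 0.976 kb, a floor that the 6 lists shared within 0.784 to 1.27 kb.

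Close packing in the ETV4 list went with the first rows of its file. A neighbour within 10 kb was present for 29.9% of the first quintile (26.5 to 33.6%) and 16.2% of the last (13.5 to 19.3%), a difference of 13.7 points (9.09 to 18.3), while in the FLAG-ETV1 file it was 14.9% and 14.8%. Shared peaks had close neighbours of the same list more often than specific peaks in the FLAG-ETV1 list, and less securely in the ETV4 list. In the ETV4 list the shares were 25.9% and 20.3%, a difference of 5.63 points (0.386 to 11.6), with an interval likely too narrow. Shared ETV4 peaks were also most frequent in the first quintile, and the part of the row order in this difference was not tested. In the FLAG-ETV1 list the shares were 27.9% and 14.4%, a difference of 13.5 points (8.28 to 19.4). FLAG-ETV1 peaks with JUND were likewise clustered, 28.3% (22.9 to 34.3%) against 14.4% without, and those with FLAG-ERG less so, 19.9% against 14.3%, 5.56 points (2.70 to 8.73).

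Chaining peaks with gaps of up to 10 kb gave 55 ETV4 clusters of 3 or more peaks, holding 6.05% of the list, and 95 FLAG-ETV1 clusters, holding 3.61%. At equal size FLAG-ETV1 had 6 such clusters. Leaving out rows breaks up clusters by construction, so that count does not show weaker clustering than the 55 of ETV4. The largest ETV4 cluster had 7 peaks on chromosome 16, 1054017 to 1080144 (hg18), where FLAG-ETV1 had 2 peaks, 1 of them shared, FLAG-ERG and GABPA had 1 each and JUND and ETS1 none. The next had 6 peaks on chromosome 10, 53873372 to 53906101. Of the clusters tied at 5 peaks, the shortest was on chromosome 3, 57930447 to 57944708. Both had 2 JUND peaks and no peak of an RWPE-1 list. The largest FLAG-ETV1 cluster had 6 peaks on chromosome 20, 29747428 to 29775344, with 3 ETV4 peaks, 2 of them shared, 3 FLAG-ERG, 3 ETS1 and 1 JUND peak. The shortest of the FLAG-ETV1 clusters tied at 5 peaks were on chromosome 5, 134397199 to 134408014, without ETV4, and on chromosome 19, 5628972 to 5648046, with 1 ETV4 peak that was shared.

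**Figure D4:**
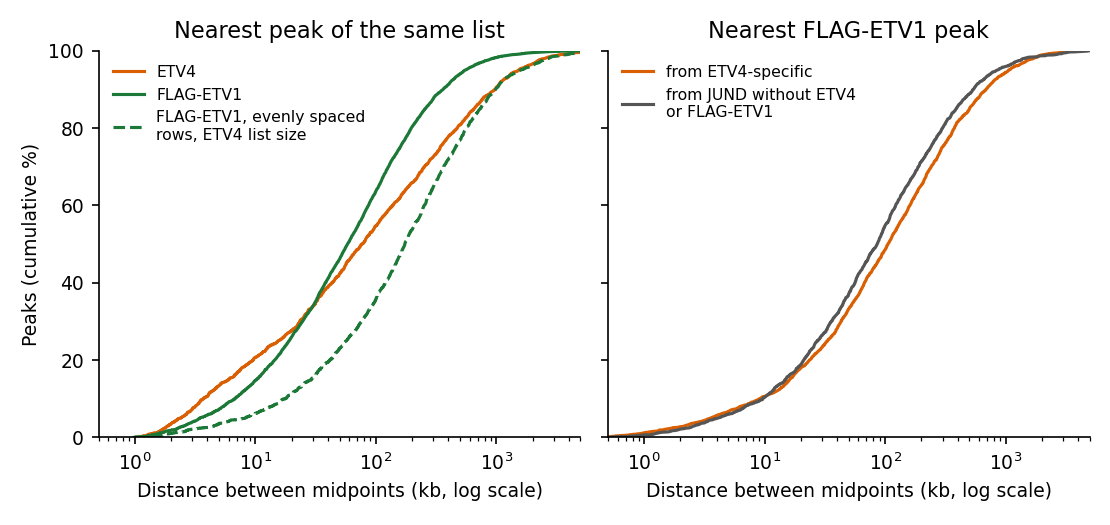
Cumulative percentage of peaks (vertical axis) by distance between midpoints in kb (horizontal axis, log scale), to the nearest peak of the same list (left) and to the nearest FLAG-ETV1 peak (right). At 10 kb ETV4 stands at 20.7%, FLAG-ETV1 at 14.8% and FLAG-ETV1 at the ETV4 list size at 6.20%; on the right, ETV4-specific peaks and JUND peaks without either PEA3 protein stand at 10.6% and 10.3%.

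Beyond direct overlap, ETV4-specific peaks and JUND peaks of the same line had no detectable difference in nearness to FLAG-ETV1 within 10 kb, and at wider distances a smaller share of ETV4-specific peaks had a FLAG-ETV1 peak. Of the 2892 ETV4-specific peaks, 307 had a FLAG-ETV1 peak within 10 kb, 10.6% (9.54 to 11.8%), and 34 had one within 1 kb without overlap. Of 2119 JUND peaks that overlapped neither PEA3 list, 10.3% had one within 10 kb (9.11 to 11.7%), a difference of 0.28 points (-1.46 to 1.98). Within 50 kb the values were 33.3% (31.6 to 35.0%) and 37.2% (35.2 to 39.3%), and within 100 kb 48.5% (46.7 to 50.3%) and 54.7% (52.6 to 56.9%), with intervals that do not meet. ETV4-specific peaks with and without JUND differed by 0.74 points within 10 kb (-1.87 to 3.73). At 100 kb they stood apart, at 54.9% with JUND (50.9 to 58.8%) and 46.7% without (44.7 to 48.8%), with median distances of 79.2 and 113.9 kb. The median distance to FLAG-ETV1 was 105.5 kb for all ETV4-specific peaks and 85.8 kb for the JUND peaks, and 5.67% of ETV4-specific peaks were more than 1000 kb away. From the other side, 3.75% of FLAG-ETV1-specific peaks had an ETV4 peak within 10 kb and 23.0% had none within 1000 kb. Chaining both lists together gave 454 groups with both proteins, of which 243 held an overlapping pair and 211 held both without contact, beside 2315 groups with ETV4 alone and 7541 with FLAG-ETV1 alone.

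The PEA3 lists were placed differently over the chromosomes. Of chromosomes 1 to 22 and X, 7 held a larger share of the ETV4 than of the FLAG-ETV1 list with an interval above 0, 7 a smaller one, and 9 had an interval that included 0. The largest differences towards ETV4 were on chromosome 3, 9.48% of ETV4 and 3.86% of FLAG-ETV1 peaks (5.62 points, 4.56 to 6.76), chromosome 8, 8.15% and 3.93% (4.22 points, 3.22 to 5.30), and chromosome 2, 9.26% and 6.97% (2.29 points, 1.18 to 3.47). Those towards FLAG-ETV1 were on chromosome 9, 1.94% and 6.08% (-4.14 points, -4.81 to -3.41), chromosome 1, 7.67% and 11.6% (-3.97 points, -5.09 to -2.79), and chromosome 16, 1.46% and 4.03% (-2.57 points, -3.13 to -1.94). As ratios of the shares, chromosome 18 came first at 2.78, with 3 at 2.46 and 8 at 2.07, and chromosome 9 last at 0.319, with 16 at 0.363 and 19 at 0.524. On all 14 chromosomes with an interval off 0, the JUND share lay on the same side of the FLAG-ETV1 share as the ETV4 share did. Close peaks are linked, so the intervals of chromosome shares, here and in the next paragraph, are likely too narrow. The count of 14 chromosomes may then be too high. A higher share on 1 chromosome lowers the others, and protein and line cannot be told apart here.

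Taken as a share of ETV4 peaks, sharing was also uneven over the chromosomes, without following the balance of the lists throughout. On chromosome 3 only 10 of the 298 ETV4 peaks were shared, 3.36%, which was 5.12 points below the other chromosomes (interval of the difference -6.98 to -2.24). On chromosome 16, where ETV4 had 46 peaks, 11 were shared, 23.9%, which was 16.2 points above the others (6.11 to 30.2). Chromosome 9, with the lowest ratio of ETV4 to FLAG-ETV1, had 2 of its 61 ETV4 peaks shared, 3.28%, and chromosome 8, rich in ETV4, had 7.03%. Chromosomes 19 and 20 had 16.9% and 17.1% of their ETV4 peaks shared. Taken as a share of FLAG-ETV1 peaks, the picture was different. Chromosomes 3 and 16 then had 2.97% and 3.125% shared, near the 2.87% of the whole FLAG-ETV1 list. Chromosomes 19 and 20 had 3.19% and 3.93%, chromosome 8 had 5.25% and chromosome 9 had 0.377%. On X, with 58 ETV4 and 80 FLAG-ETV1 peaks, none of the 251 shared regions was found. By the limit of 3 counts this allows a share of up to 1.20% of the 251 regions (upper Wilson bound 1.51%). That limit has another base than the shares of ETV4 peaks above and is not to be set beside them.

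**Figure D5:**
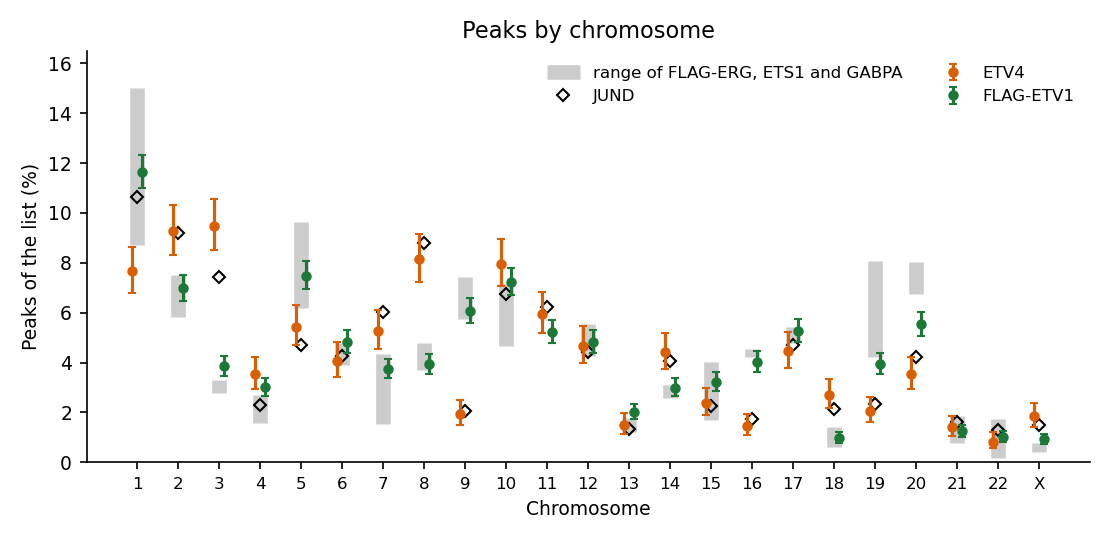
Percentage of each list (vertical axis) on chromosomes 1 to 22 and X (horizontal axis): ETV4 and FLAG-ETV1 as points with Wilson 95% intervals, JUND as open diamonds, and the range of FLAG-ERG, ETS1 and GABPA as grey bars. ETV4 lies with JUND above FLAG-ETV1 on chromosomes 3 and 8 and below it on chromosomes 9 and 16.

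In windows of 1 Mb, 1124 of the 2632 windows with a peak of any list held both PEA3 proteins, 219 held ETV4 without FLAG-ETV1 and 1072 FLAG-ETV1 without ETV4. Over these windows the Spearman correlation of peak counts, a description across neighbouring stretches of 1 genome, was 0.15 for ETV4 with FLAG-ETV1, 0.49 for ETV4 with JUND, 0.57 for FLAG-ETV1 with FLAG-ERG, 0.57 for FLAG-ETV1 with GABPA, 0.28 for FLAG-ETV1 with JUND and 0.096 for ETV4 with GABPA. In windows of 5 Mb the same correlations were 0.31, 0.71, 0.78, 0.79, 0.50 and 0.22, all higher and in the same order. The densest windows of ETV4-specific peaks were on chromosome 10 at 36000001 to 37000000 (15 specific peaks, FLAG-ETV1 1), at 63000001 to 64000000 (15, FLAG-ETV1 1) and at 33000001 to 34000000 (14, FLAG-ETV1 7). Those of FLAG-ETV1-specific peaks were on chromosome 1 at 199000001 to 200000000 (27, ETV4 5), chromosome 20 at 48000001 to 49000000 (25, ETV4 0) and chromosome 9 at 135000001 to 136000000 (24, ETV4 0). Dense in both were chromosome 11 at 64000001 to 65000000, with 12 ETV4 and 19 FLAG-ETV1 peaks of which 4 were shared, chromosome 10 at 75000001 to 76000000, with 13 and 17 peaks and 3 shared, and the next window of chromosome 10, from 76000001, with 10 and 16 peaks and none shared.

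Of the 251 shared regions, 11 were present in 5 of the 6 lists and 57 in 4. The first 6 of those 11 by position illustrate the sets that met. On chromosome 1 at 59087140 to 59087672 the PEA3 midpoints were 44.5 bp apart, with JUND, FLAG-ERG and GABPA; this was the region where a shared peak met both JUND and GABPA. At 93939639 to 93940234 (99.5 bp apart) and 150287043 to 150287535 (4.5 bp) of chromosome 1, and at 25807914 to 25808458 of chromosome 4 (67.5 bp), the others were JUND, FLAG-ERG and ETS1. At 130362603 to 130363169 of chromosome 3 (105 bp) and 40870884 to 40871402 of chromosome 5 (20.5 bp), they were FLAG-ERG, ETS1 and GABPA, and JUND was not called. The 3 most closely centred shared regions were chromosome 8, 95801085 to 95801584 (1 bp apart) and chromosome 18, 3237586 to 3238082 (1.5 bp), both with FLAG-ERG alone, and chromosome 3, 197498872 to 197499371 (2 bp), with ETS1 and GABPA.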

How the data were processed

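Per the labels, the coordinates are on hg18 and the libraries were made with a commercial ChIP-seq kit. The authors deposited each list as 3 columns, chromosome, start and end, with no score. The sources used here give no aligner, peak caller, control, threshold or depth, so every peak counts once. The input and FLAG control libraries were not used here. Starts were read as counted from 0 and are printed counted from 1. Groups came from sample titles.

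The members and measures were chosen with earlier results of these data known. Overlap needed 1 bp; clusters used gaps of up to 10 kb; windows were 1 Mb. Shares carry Wilson and differences Newcombe 95% intervals, with no p-values. Regions were named by rule: most lists, closest midpoints, largest clusters, densest windows, extreme chromosomes. The planned protein comparison, gene names and motifs were not run, since no reference on hg18 and no protein table was used here. The breakdowns by row quintile within neighbours, by pairs of other lists and by chromosome-wise sharing were added after the data were seen. Overlap, distance and interval code was tested on simulated lists. Tables were handled in pandas 2.3.3 and numpy 2.4.6, intervals in scipy 1.17.1 and plots in matplotlib 3.10.9, under Python 3.11.15. Alternatives covered the overlap rule, peak width, chromosomes, list size, rows and distance limits.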

Additional observations from a re-analysis of the deposited data

How the results depend on the processing

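Of 124 values of 24 results under the alternatives tried, 102 stayed within the 95% interval of the reported value, 20 moved outside it and 2 reversed. The share of ETV4 peaks overlapped by FLAG-ETV1 was 6.05% with a reciprocal overlap of 50%, 9.0% with gaps of up to 500 bp, 3.25% with the thinned FLAG-ETV1 list and 2.16% in the first rows of each file. The share of FLAG-ETV1 peaks was 2.17%, 3.25% and 2.16% with reciprocal overlap, thinning and first rows. The share of ETV4-specific peaks near FLAG-ETV1 was 6.64% within 5 kb, 33.3% within 50 kb and 4.51% with thinning. The clustering difference was 14.5 points with thinning and reversed to -3.75 points at 50 kb. In the first rows, shared minus ETV4-specific peaks was counted as reversed for GABPA by its sign alone (-0.33 points, -0.68 to 7.23). Every list longer than the shortest, GABPA included, was cut there and few shared peaks remained, so a reversal was not shown. In those rows shared minus FLAG-ETV1-specific peaks was 47.5 points for JUND, 39.6 for FLAG-ERG and -2.34 for GABPA (-3.08 to 5.23). There, ETV4-specific minus FLAG-ETV1-specific peaks was -0.52 for FLAG-ERG and -2.02 for GABPA. That last comparison was -2.14 points for FLAG-ERG with thinning, -2.26 for ETS1 and -3.23 for GABPA with reciprocal overlap, and -5.40 for GABPA with gaps of up to 500 bp. Thinning and first rows use fewer peaks by construction; the cause of the other moves was not tested. Of the 20 differences with an interval off 0, 2 came to include 0, both in the first rows (GABPA, shared minus ETV4-specific, and FLAG-ERG, ETV4-specific minus FLAG-ETV1-specific). Depth is unknown, so peaks missed in a shallow library cannot be told from unbound regions.
No paired analysis was possible because each factor had 1 library and the results come from no test.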
